A study of Homo sapiens with 6 samples.

Results

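The 10 genes described here encode large scaffold proteins of the centrosome: PCM1, AKAP9, PCNT, CEP290, CEP350, CEP192, CEP152, CEP250, CDK5RAP2 and NIN. They were chosen by name, with earlier results of these data known, and all 10 were found among the 57905 genes counted. The RNA came from H929, an established human multiple myeloma cell line. Total RNA was incubated in vitro with recombinant human IRE1 (IRE1-treated, 3 samples) or without the enzyme (control, 3 samples), and poly(A) mRNA was then purified and sequenced. A cleaved mRNA loses its 5′ fragment in this purification, while a gene count adds the reads from both sides of a cleavage site. As the members were chosen with earlier results known, their direction is not independent evidence. PCM1 and AKAP9 also belong to a list that the study picked on these same libraries.

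The centrosome is the main microtubule-organizing center of animal cells. Its centrioles sit in a matrix of coiled-coil scaffold proteins, which recruits gamma-tubulin complexes that nucleate microtubules and kinases that drive centriole duplication and spindle assembly. IRE1 is a sensor of endoplasmic reticulum stress whose RNase domain splices XBP1 mRNA and cleaves other mRNAs, with a preference for a short motif in the loop of a hairpin, and plasma cells need this response to secrete antibody.

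Gene counts per library were between 21144515 and 25678499 in the controls and between 19615715 and 23041598 in the IRE1-treated samples. The 10 members together held 15184, 12820 and 11306 counts in control replicates 1, 2 and 3, and, in the same order, 8490, 9992 and 11480 after IRE1. Their share of all gene counts was 0.0591%, 0.0571% and 0.0535% in the controls and 0.0433%, 0.0464% and 0.0498% in the IRE1-treated samples. The shares of the groups thus did not overlap. Of single tested genes, 20.0% had every IRE1-treated sample below every control in normalized counts. PCM1 and CDK5RAP2 held the most counts of the members, 5862 and 2634 in control replicate 1. Values per gene are given below as normalized counts, which are counts scaled with TMM factors to a common library size. All 10 members passed the filter on low counts.

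Marker genes showed plasma cell RNA in every library. The 8 plasma cell markers summed to between 235840 and 240920 normalized counts in the controls and between 236190 and 252890 after IRE1, with JCHAIN the most abundant. The 5 myeloid markers summed to between 51.4 and 71.7, led by S100A9, with CD14 at 0 in the controls. The 5 stromal and epithelial markers summed to between 115 and 153, led by KRT8, with COL1A2 and LUM at 0. The 5 T cell and NK cell markers summed to 1045, 1102 and 1075 in the controls and 1391, 1135 and 1134 after IRE1. Most of that sum was CD3E, while CD3D was at 0 in the controls. Their part in the results for the members was not tested. The enzyme was added to extracted RNA, and in bulk RNA fewer cells of a type and less RNA per cell cannot be told apart.

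Of the 10 members, 6 were lower in the IRE1-treated samples with an adjusted p under 0.05 in edgeR: CEP350, CEP192, AKAP9, NIN, PCNT and PCM1. None was higher, and DESeq2 likewise gave 6 lower and 0 higher. Among all 14398 genes tested, 1781 were lower (12.4%) and 1489 higher (10.3%), so that 54.5% of the calls were lower, against 79.2% when only library size was scaled for and 38.4% with the length and GC trend removed. At an unadjusted p under 0.05 in edgeR 7 members were lower and 0 higher, where 18.2% of all genes were lower and 16.7% higher. The median log2 fold change was -0.24 over the members and 0.0045 over all tested genes. In 7 members all IRE1-treated samples were below all controls, as in 20.0% of all tested genes. Without control replicate 1, 2 members were lower, where 6.68% of all genes were. Without any other library 4 to 7 members were lower, where 6.82% to 15.3% of all genes were.

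Part of the other long mRNAs was lower too. The shortest member transcript has 5560 bases, and of the 2746 tested protein-coding genes with at least that length, 1091 were lower (39.7%) and 49 higher. These counts were 660 and 23 without control replicate 1, 684 and 21 without control replicate 2, 914 and 27 without control replicate 3, and 747 and 30 without IRE1-treated replicate 2. Their median log2 fold change was -0.22. After the trend with transcript length and GC content was removed in each sample, edgeR called 0 members lower, where 4.06% of all genes were lower. In that fit 1 member was higher, CEP250, where 6.53% of all genes were. At an unadjusted p under 0.05 in that edgeR fit 0 members were lower and 2 higher, where 9.83% of all genes were lower and 14.2% higher. The trend was fitted on values centred over all samples. Its removal therefore also takes out any difference between the groups that runs with length or GC content. Whether such a difference came from the enzyme was not tested.

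**Figure D1:**
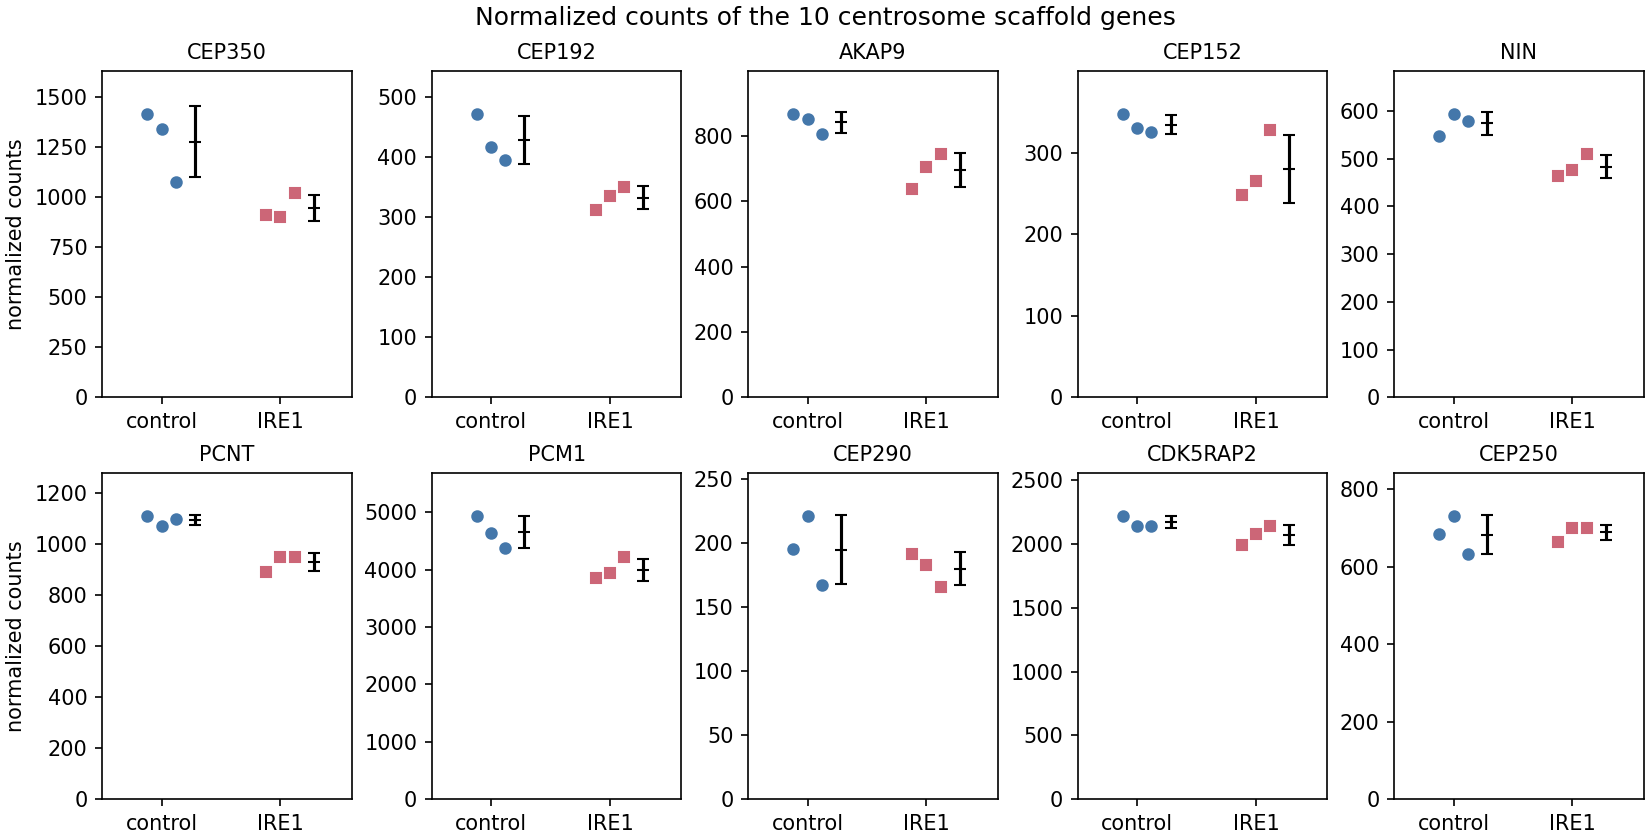
Normalized counts of each member (vertical axis, from 0) in the 3 control samples (circles) and the 3 IRE1-treated samples (squares), with mean ± SD as bars. All IRE1-treated samples lie below all controls in 7 of the 10 genes, and the groups overlap in CEP152, CEP290 and CEP250.

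PCM1 (ENSG00000078674, chromosome 8, 17780351 to 17887457 on the plus strand of GRCh37) is the scaffold of the centriolar satellites, granules that carry proteins to and from the centrosome. It had 4947, 4640 and 4386 normalized counts in control replicates 1, 2 and 3 and, in the same order, 3852, 3942 and 4219 after IRE1. The groups were apart, with means of 4658 ± 281 and 4004 ± 191 (SD, n = 3). edgeR put the difference at -0.22 on the log2 scale, with a standard error of 0.0544 and an adjusted p of 0.00959. The call ended without control replicate 1 (adjusted p = 0.0795), without IRE1-treated replicate 2 (0.0533) and in limma on CPM (0.0602). With the length and GC trend removed PCM1 was at 0.06 (adjusted p = 0.411), and its adjusted p ranged from 0.000214 to 0.471 over the alternatives. With coding length in place of transcript length PCM1 was higher (0.15, adjusted p = 0.0303).

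AKAP9 (ENSG00000127914, chromosome 7, 91570154 to 91739987, plus strand) anchors protein kinase A at the centrosome and the Golgi. Its normalized counts were 867, 852 and 806 in the controls and 638, 706 and 743 after IRE1. No IRE1-treated sample reached the lowest control, and the means were 842 ± 31.7 and 696 ± 53.3 (SD, n = 3). The difference in edgeR was -0.27 on the log2 scale, its standard error 0.0686 and its adjusted p 0.0100. Without control replicate 1 (adjusted p = 0.0625) or control replicate 2 (0.0521) the call ended. With the length and GC trend removed AKAP9 was at 0.03 (adjusted p = 0.806), in a range from 0.00139 to 0.846 over the alternatives. It shares 108 exonic bases with CYP51A1 on the opposite strand.

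PCNT, CDK5RAP2 and CEP192 build the pericentriolar material: PCNT and CDK5RAP2 anchor gamma-tubulin complexes, and CEP192 recruits the kinases AURKA and PLK4. PCNT (ENSG00000160299, chromosome 21, 47744038 to 47865682, plus strand) had 1113, 1073 and 1098 normalized counts in the controls and 892, 951 and 950 after IRE1. Its libraries lay close together within each group and the groups were apart (1095 ± 20.1 and 931 ± 33.8, SD, n = 3). The edgeR difference of -0.23 on the log2 scale (standard error 0.0568) had an adjusted p of 0.00842. It missed the threshold without control replicate 1 (adjusted p = 0.0519), and at 0.01 with the length and GC trend removed (0.925, range 0.00281 to 0.941).

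CEP192 (ENSG00000101639, chromosome 18, 12991361 to 13125051, plus strand) had 473, 417 and 395 normalized counts in the controls and 313, 335 and 351 after IRE1. Every IRE1-treated library was below the controls, at 428 ± 39.8 and 333 ± 19.3 on average (SD, n = 3). In edgeR it differed by -0.36 on the log2 scale with a standard error of 0.0894 (adjusted p = 0.00883). That call ended without control replicate 1 (adjusted p = 0.0752) and, at -0.11, with the length and GC trend removed (0.417, range 0.000862 to 0.98). CDK5RAP2 (ENSG00000136861, chromosome 9, 123151153 to 123342448, minus strand) had 2223, 2142 and 2144 normalized counts in the controls and 1990, 2076 and 2141 after IRE1. The lowest control of CDK5RAP2 and its highest IRE1-treated library were nearly level, with no overlap. The exact two-sided permutation p was 0.1, the smallest that 3 samples against 3 allow. At -0.07 on the log2 scale (standard error 0.0497) CDK5RAP2 missed the threshold in edgeR (adjusted p = 0.360). Its sign changed with the length and GC trend removed (0.11, adjusted p = 0.101), and it was higher with coding length in place of transcript length (0.21, 0.0036, range 0.0036 to 0.643).

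CEP350 and CEP152 act on the centriole itself: CEP350 binds centrioles and stabilizes microtubules, and CEP152 recruits PLK4 to start a new centriole. CEP350 (ENSG00000135837, chromosome 1, 179923809 to 180084015, plus strand) had 1417, 1339 and 1079 normalized counts in the controls and 912, 903 and 1021 after IRE1. Control replicate 3 was closer to the IRE1-treated libraries than to the other controls, and the groups were apart (1278 ± 177 and 945 ± 65.4, SD, n = 3). Its difference of -0.44 on the log2 scale (standard error 0.0855) had an adjusted p of 0.00227 in edgeR and held without any 1 library. With the length and GC trend removed it was -0.14 (adjusted p = 0.213, range 7.9e-10 to 0.622). CEP350 shares 615 exonic bases with the pseudogene RPSAP16 on the same strand and 32 with a gene on the other.

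CEP152 (ENSG00000103995, chromosome 15, 49005125 to 49103343, minus strand) had 348, 330 and 326 normalized counts in the controls and 248, 266 and 328 after IRE1. IRE1-treated replicate 3 lay among the controls. The difference, -0.25 on the log2 scale with a standard error of 0.103, missed the threshold in edgeR (adjusted p = 0.0957). Without IRE1-treated replicate 3 it passed, at -0.38 (adjusted p = 0.00692, range 0.00692 to 0.708). CEP152 was at -0.07 with the length and GC trend removed (adjusted p = 0.698), and with coding length its sign changed (0.08). It shares 334 exonic bases with genes on the opposite strand.

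CEP290 and NIN work on the mother centriole, CEP290 as a gatekeeper of the primary cilium and NIN as an anchor of microtubules at the subdistal appendages. CEP290 (ENSG00000198707, chromosome 12, 88442793 to 88535876, minus strand) had 195, 221 and 167 normalized counts in the controls and 192, 182 and 166 after IRE1. The groups overlapped, and the difference of -0.12 on the log2 scale was about as large as its standard error of 0.119 (adjusted p = 0.522 in edgeR, range 0.12 to 0.95). Its sign changed with the length and GC trend removed (0.16, adjusted p = 0.458). CEP290 shares 399 exonic bases with C12orf29 on the opposite strand. NIN (ENSG00000100503, chromosome 14, 51186481 to 51297880, minus strand) had 548, 594 and 579 normalized counts in the controls and 465, 476 and 510 after IRE1. Its groups were apart, at 574 ± 23.6 and 483 ± 23.6 (SD, n = 3). NIN differed by -0.24 on the log2 scale with a standard error of 0.0722 (adjusted p = 0.0237 in edgeR). The call ended without control replicate 2 (adjusted p = 0.12), control replicate 3 (0.074) or IRE1-treated replicate 2 (0.0842). NIN was at 0.04 with the length and GC trend removed (adjusted p = 0.785, range 0.00899 to 0.83). It shares 72 exonic bases with a gene on the opposite strand.

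CEP250 (ENSG00000126001, chromosome 20, 34042985 to 34107108, plus strand) forms the linker between the centrioles. It had 684, 732 and 633 normalized counts in the controls and 665, 700 and 699 after IRE1, all within the range of the controls. The difference was 0.01 on the log2 scale, with a standard error of 0.0693 (adjusted p = 0.930 in edgeR). Its sign changed when only library size was scaled for (-0.06), with no filter (-0.0005) and without control replicate 3 (-0.04) or IRE1-treated replicate 2 (-0.0013). With the length and GC trend removed CEP250 was higher, at 0.28 (adjusted p = 0.00639, range 0.00639 to 0.997). Of the 15422 bases of its transcript 7326 are coding. With coding length in place of transcript length, an alternative chosen after seeing the data, CEP250 was at 0.27 (adjusted p = 0.00671), PCM1 at 0.15 (0.0303) and CDK5RAP2 at 0.21 (0.0036), all 3 higher, where 8.45% of all genes were. No member was lower in that edgeR fit, where 6.36% of all genes were. At an unadjusted p under 0.05 it had 0 members lower and 5 higher, where 12.2% of all genes were lower and 16.8% higher. CEP250 shares 427 exonic bases with RP3-477O4.16 on the same strand and 222 with CEP250-AS1 on the other.

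**Figure D2:**
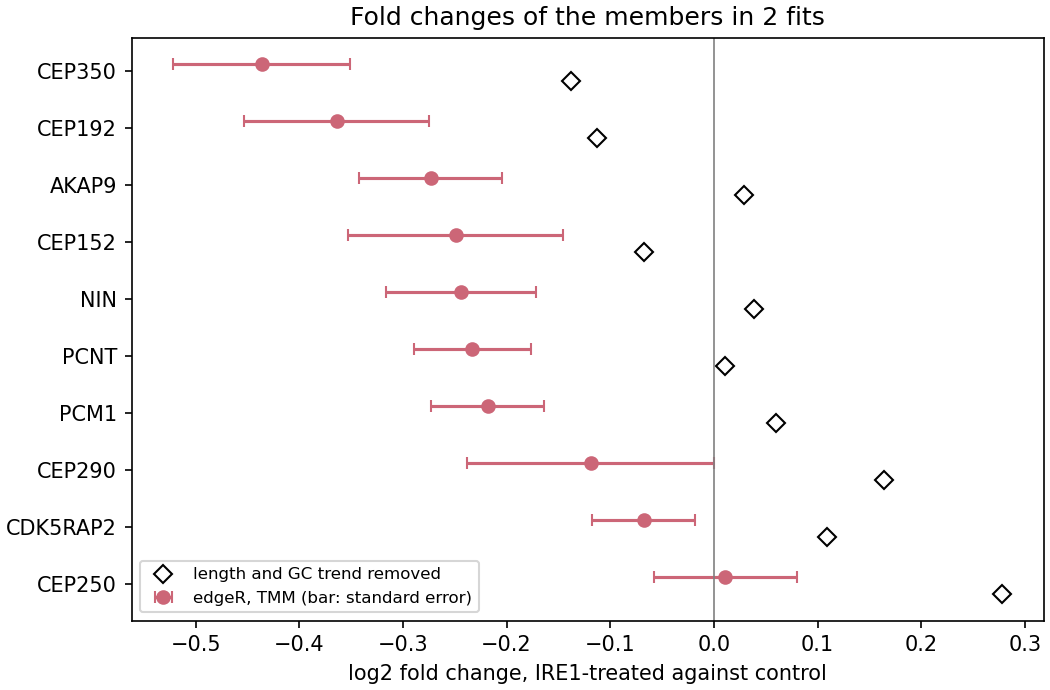
Log2 fold change of each member (horizontal axis) from edgeR with TMM factors (filled circles; bars are standard errors) and with the length and GC trend removed (open diamonds). Each diamond lies to the right of its circle, and CEP350 moves from -0.44 to -0.14.

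Fold changes ran along transcript length. Over the 12225 tested protein-coding genes Spearman's rho with log2 fold change was -0.645 for transcript length and 0.251 for GC content, a description across genes that share these libraries and are not independent replicates. The 701 genes with transcripts under 1 kb had median shifts from the control mean, in log2 units, of 0.34 in IRE1-treated replicate 1, 0.25 in replicate 2 and 0.15 in replicate 3. For the 1099 genes over 8 kb it was -0.34, -0.28 and -0.19. Short and long mRNAs thus moved apart in each IRE1-treated library. Control replicate 3 moved the same way by less, at 0.03 under 1 kb and -0.05 over 8 kb. Control replicates 1 and 2 moved the opposite way, at -0.01 and -0.02 under 1 kb and 0.03 and 0.02 over 8 kb. PCM1 shifted by -0.27, -0.24 and -0.14 in the IRE1-treated libraries, and AKAP9 by -0.40, -0.25 and -0.18. Among the 10 members rho was -0.103 with length and 0.236 with GC content, and CEP250, with the longest transcript of the members, had the smallest difference.

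**Figure D3:**
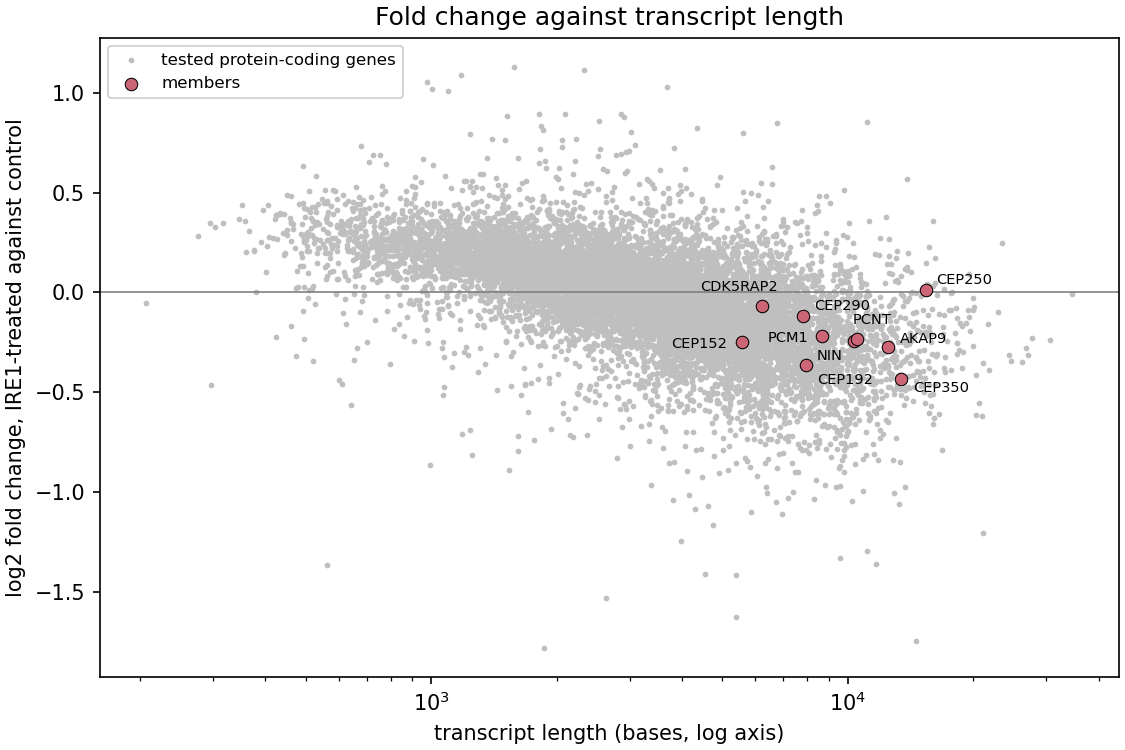
Log2 fold change (vertical axis) against transcript length in bases (horizontal log axis) for the tested protein-coding genes (grey) and the 10 members (red, named). The members have transcripts of 5560 to 15422 bases and lie among other genes of such lengths.

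Levels were compared between members as normalized counts per kb of transcript. In the controls PCM1 had the highest level, 538 ± 32.4 per kb (SD, n = 3), and CDK5RAP2 the next, 348 ± 7.42 per kb. The levels of PCNT (104 ± 1.91 per kb) and CEP350 (95.3 ± 13.2 per kb) overlapped. AKAP9 followed with a level of 67.5 ± 2.55 per kb and CEP152 with 60.2 ± 2.09 per kb. The levels of NIN (55.5 ± 2.29 per kb) and CEP192 (53.8 ± 5.00 per kb) overlapped, and CEP250 (44.3 ± 3.20 per kb) and CEP290 (24.9 ± 3.45 per kb) had the lowest. All other neighbours in this order were apart in the 3 controls. With the length of all merged exons, 5 members had the same rank, CEP192 went from rank 8 to rank 4 and AKAP9 from rank 5 to rank 8. The level of CDK5RAP2 on that scale was 80.2 per kb, still the next after PCM1 with 322 per kb.

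Members also differed in how their libraries moved together. Over the 6 samples, Pearson's r between log2 normalized counts was 0.988 for PCM1 and CEP192 and 0.958 for PCM1 and AKAP9, which includes the difference between the groups. CEP250 and CEP290 stood apart, with r of 0.176 and 0.355 to PCM1. Among 10292 genes whose normalized counts averaged 100 or more, those most like PCM1 were ERI1, a 3′ exoribonuclease (r = 0.9976), EPB41, a protein of the membrane skeleton (0.9975), and NEDD4L, a ubiquitin ligase (0.9971). For AKAP9 they were PHIP (0.9991), TMTC1 (0.999) and CPNE3 (0.999). These genes were picked for the highest r over 6 samples that share the trend with length, and r is a description.

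The motif CTGCAG was searched on the sense strand of 1 transcript per gene. A site was counted as a hairpin site where the third base of the motif was unpaired in a predicted hairpin loop with a size of 5 to 11 bases and a stem of 3 or more pairs. CEP250 had 41 sites and PCNT 36, with 7 hairpin sites each. CDK5RAP2 had 12 sites with 1 in a hairpin, NIN 10 with 2, CEP350 7 with 1 and CEP290 4 with 3. AKAP9 had 7 sites, CEP152 5 and PCM1 4, none in such a hairpin, and CEP192 had no site. Thus 6 of the 10 members had a hairpin site, against 54.1% of the tested protein-coding genes at least as long as the shortest member and 35.4% of all of them. Of the 6 members that were lower, PCNT, CEP350 and NIN had one and PCM1, AKAP9 and CEP192 did not. Of the members that were not lower, CEP250, CDK5RAP2 and CEP290 had one and CEP152 did not. With the looser motif CNGCAGN, which contains CTGCAG followed by any base, 9 members had a hairpin site, against 78.9% of the genes at least as long as the shortest member and 59.1% of all tested protein-coding genes. Among these 9 were all 6 members that were lower, including PCM1, AKAP9 and CEP192. CEP290, CEP250 and CDK5RAP2, which were not lower, were among them too. With CTGCAG and a loop of exactly 7 bases 0 members had a hairpin site, against 11.7% of those long genes and 7.1% of all. Among the long genes the median log2 fold change was -0.21 with a CTGCAG hairpin site and -0.22 without, and for CNGCAGN it was -0.22 with and -0.20 without. Over all tested protein-coding genes it was -0.06 with a CTGCAG hairpin site and 0.02 without. For CNGCAGN these medians were -0.05 and 0.06. There the genes with a hairpin site had longer transcripts (medians of 4322 and 2895.5 bases for CTGCAG).

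To show that such sites occur in members that were lower and in members that were not, 1 coding hairpin site is printed for each of 5 members, the one with the longest stem among those with all 30 bases in 1 exon, 5′ to 3′ on GRCh37 with the motif in capitals. A match describes the sequence and is not a cleavage site. The PCNT site is in exon 34 of 47 (chr21:47847617-47847646, plus strand), with a loop of 5 bases and a stem of 7 pairs. The CEP350 site is in exon 34 of 38 (chr1:180063267-180063296, plus strand), with a loop of 9 and a stem of 3. The NIN site is in exon 18 of 31 (chr14:51224523-51224552, minus strand), with a loop of 9 and a stem of 4. These 3 genes were lower. The CEP250 site is in exon 17 of 36 (chr20:34065822-34065851, plus strand), with a loop of 6 and a stem of 7. The CEP290 site is in exon 31 of 54 (chr12:88483139-88483168, minus strand), with a loop of 10 and a stem of 5.
PCNT: cagggggttgagCTGCAGccccgactcagt
CEP350: aggtttccatcgCTGCAGaagatgacactt
NIN: gtcctcttaagcCTGCAGagagctcatgaa
CEP250: ctggaggctcagCTGCAGaaagctgaggag
CEP290: attacatctaaaCTGCAGaagatggaggcc

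Other centrosome genes were compared by list. Of 73 tested genes in the other 5 centrosome lists, 14 were lower and 6 higher in edgeR, where 12.4% and 10.3% of all tested genes were, with a median log2 fold change of -0.02. Without 1 library 8 to 18 of the 73 were lower and 1 to 11 higher. With library size only 22 were lower and 1 higher, and with the length and GC trend removed 3 were lower and 3 higher. Of 18 centriole assembly genes 5 were lower and 3 higher (median -0.12). CCP110, a cap of the centriole, was at -0.52, but not past the threshold without control replicate 1 (adjusted p = 0.0779), control replicate 2 (0.051) or IRE1-treated replicate 2 (0.0925, range 4.38e-06 to 0.138). STIL, which helps to build the centriole cartwheel, was at -0.36, CEP295 at -0.35 and CETN3, a centrin, at 0.33. CETN3 was past the threshold also with the length and GC trend removed (0.33, adjusted p = 0.00837, range 0.00519 to 0.0414). In that fit CCP110 (-0.34, adjusted p = 0.0674), STIL (-0.21, 0.0567, range 3.88e-05 to 0.445) and CEP295 (-0.09, 0.388, range 3.57e-05 to 0.816) missed it, STIL passed when a replicate block was added to that fit (-0.21, adjusted p = 0.045), and with coding length CEP295 was at 0.03. CEP295 shares exons with TAF1D on the opposite strand.

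Of 18 tested genes of the gamma-tubulin ring complex and augmin, which nucleate and branch microtubules, 2 were lower and 2 higher (median 0.05). The shares over all tested genes were 12.4% and 10.3%. NEDD1, which attaches the complex, was at -0.39 and TUBGCP6 at -0.25. The length and GC trend, once removed, left NEDD1 at -0.25 (adjusted p = 0.0649, range 0.000903 to 0.329), TUBGCP6 at -0.10 (0.214, range 0.00143 to 0.291), TUBG1 at 0.07 (0.262) and HAUS7 at 0.26 (0.239), none past the threshold in edgeR. With coding length TUBG1 passed (0.16, adjusted p = 0.0148) and the other 3 did not. TUBG1, a gamma-tubulin, was at 0.20 and lost the call without control replicate 2 (adjusted p = 0.0567, range 0.000965 to 0.373). HAUS7, a subunit of augmin, was at 0.41 and passed without IRE1-treated replicate 3 but missed without control replicate 1 (adjusted p = 0.135), 2 (0.0785) or 3 (0.149) or IRE1-treated replicate 1 (0.154) or 2 (0.114), in a range from 0.0126 to 0.267. HAUS7 shares 1414 exonic bases with TREX2 on the same strand, and TUBG1 174 with RETREG3 on the opposite strand.

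Of 12 genes of the centriolar satellites, the granules that PCM1 holds together, 2 were lower and 1 higher (median 0.02). Over all tested genes 12.4% were lower and 10.3% higher. The ubiquitin ligase MIB1 was at -0.63 and CCDC14 at -0.31. MIB1 (-0.35, adjusted p = 0.0163, range 8.85e-16 to 0.0305), CCDC14 (-0.18, 0.0393) and OFD1 (0.35, 0.0247) were past the threshold also with the length and GC trend removed, and CCDC14 missed it when a replicate block was added to that fit (-0.18, 0.0716) and with coding length (-0.04, 0.711, range 0.000226 to 0.711). OFD1 was at 0.29 and missed the threshold without control replicate 1 (adjusted p = 0.0809), 2 (0.128) or 3 (0.125) or IRE1-treated replicate 1 (0.102, range 0.00277 to 0.128). OFD1 shares 271 exonic bases with GPM6B on the opposite strand.

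Of 16 tested appendage and linker genes 2 were lower and 0 higher in edgeR (median -0.09), where 12.4% and 10.3% of all genes were. CEP170, a subdistal appendage protein, was at -0.59, and at -0.36 with the length and GC trend removed (adjusted p = 0.00206, range 5.15e-12 to 0.0141). The linker protein CEP68 was at -0.21 (adjusted p = 0.0491), and missed the threshold without control replicate 1 (0.143), 2 (0.164) or 3 (0.0946) or IRE1-treated replicate 1 (0.105), 2 (0.0858) or 3 (0.056), in a range from 0.0167 to 0.784. CEP68 was at -0.05 with the length and GC trend removed (adjusted p = 0.739). CEP170 shares 619 exonic bases and CEP68 758 with genes on the opposite strand.

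Of 9 kinases and spindle pole factors 3 were lower and 0 higher in edgeR (median -0.0027), where 12.4% and 10.3% of all genes were. Those 3 have transcripts of 7172 to 10863 bases. PDE4DIP, with 8607 bases, was not called, and the rest have 2033 to 4727 bases. ASPM, which focuses spindle poles, was at -0.39 with groups that overlapped, and missed the threshold without control replicate 1 (adjusted p = 0.0679), control replicate 2 (0.0851) or IRE1-treated replicate 2 (0.0869, range 9.04e-08 to 0.821). NUMA1, which anchors spindle microtubules, was at -0.19 and missed it without control replicate 2 (adjusted p = 0.0762, range 0.00141 to 0.96). The microtubule polymerase CKAP5 was at -0.16 and missed it without control replicate 1 (adjusted p = 0.177), control replicate 2 (0.167) or IRE1-treated replicate 2 (0.136, range 0.00658 to 0.427). Removal of the length and GC trend left ASPM at -0.09 (adjusted p = 0.464), NUMA1 at -0.0062 (0.946) and CKAP5 at 0.07 (0.35). With coding length ASPM (0.02) and NUMA1 (0.0073) changed sign as well, and CKAP5 was higher (0.16, adjusted p = 0.0137). NUMA1 shares 4148 exonic bases with genes on the opposite strand.

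The golgins, long coiled-coil tethers of the Golgi, were taken for comparison, and 1 of them, GOLGB1, is in the list that the study picked on these libraries, so that its direction is not independent evidence. Of 9 golgins 2 were lower and 0 higher in edgeR, where 12.4% and 10.3% of all tested genes were. All 9 values were negative, as were 7079 of the 14398 values of all tested genes. Among tested protein-coding genes at least as long as the shortest member, 2334 of 2746 were negative. Golgin transcripts had from 2879 bases (GOLGA5) to 11186 bases (GOLGB1), so that not all were as long as the shortest member. The golgin median was -0.11. Without 1 library 0 to 4 golgins were lower. With the length and GC trend removed 0 were lower and 1 higher, and with coding length 0 were lower and 2 higher. GCC2 was at -0.34 and GOLGA4 at -0.29, and both missed the threshold without control replicate 1 (adjusted p = 0.0558 and 0.0638, ranges 0.000335 to 0.793 and 5.21e-05 to 0.866). After removal of the length and GC trend GCC2 was at -0.09 (adjusted p = 0.492) and GOLGA4 at -0.03 (0.811), and with coding length both changed sign (0.04 and 0.09). GCC2 shares 62 exonic bases with GCC2-AS1 and GOLGA4 432 with GOLGA4-AS1, both on the opposite strand. Whether the members differ from these lists was not tested.

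**Figure D4:**
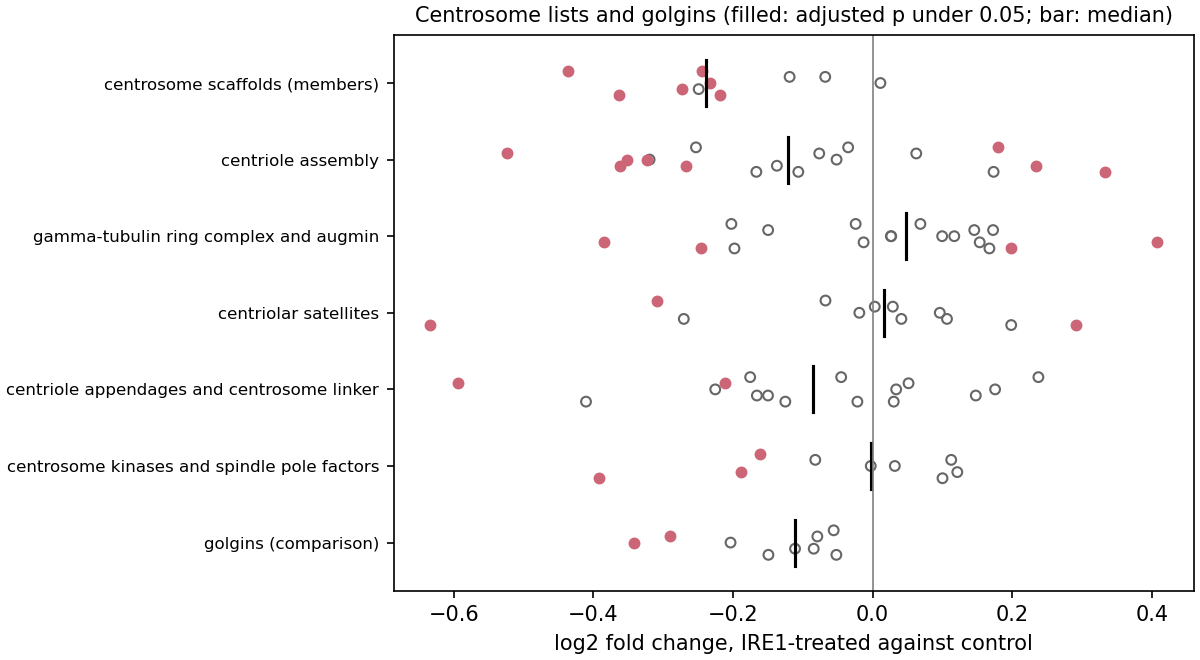
Log2 fold change (horizontal axis) of each tested gene in the members, the 5 other centrosome lists and the golgins; filled points have an adjusted p under 0.05 in edgeR and each bar is a median. The medians lie between -0.24 (members) and 0.05 (gamma-tubulin ring complex and augmin).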

How the data were processed

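H929 RNA was sequenced after incubation with (3 samples) or without (3 samples) IRE1, grouped as labelled. Per the labels, the authors used cutadapt 1.12, STAR 2.5.3a and HTSeq 0.6.1p1 on GRCh37, and deposited a raw count per gene. The authors also deposited CPM (edgeR 3.24.3), of which 12558 genes were used in an alternative. Summary lines of the counts (21.4 to 23.2%) name no gene and were left out. The strand and overlap settings of the counting are not stated, so exons that members and named list genes share with other genes are given. Members and lists were chosen with earlier results of these data known. Counts were tested in R 4.3.3 with edgeR 4.0.16 (filterByExpr, TMM, quasi-likelihood, Benjamini-Hochberg, threshold 0.05), which was tested on simulated data. Alternatives were DESeq2 1.42.0, other scalings and filters, limma 3.58.1 on log2(CPM + 1), blocking by replicate number, removal of a loess trend (0.5 span) on length and GC content, and leaving out each library. All members are named, and in each other list the called genes, up to the 4 with the largest change. The chi-square per gene was at least 2.2 for any pair of libraries, so none was a copy. The annotation (GENCODE 44 on GRCh37) named 55538 of 57905 identifiers and matched 121 of 122 list genes, and TUBGCP5 was not analysed here. One list of marker genes is not reported here. Motif sites with 15 bases on each side were folded with ViennaRNA 2.7.2. The labels do not say that libraries came from separate cultures, so p-values measure only the spread between these samples, which may be technical.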

Additional observations from a re-analysis of the deposited data

How the results depend on the processing

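For the log2 fold changes of the 10 members, 117 of 160 values under the alternatives had the direction and the side of the threshold reported, 16 had that direction but lost the call, 4 had it and gained a call, and 23 changed sign, whatever their call. For the 18 other named genes it was 203 of 288, with 77 calls lost in the same direction and 8 changes of sign. Leaving out 1 library gave 2 to 7 members lower and 0 higher, 972 to 2221 genes lower and 638 to 2091 higher, 8 to 18 genes of the other 5 centrosome lists lower and 1 to 11 higher, and 0 to 4 golgins lower and 0 higher. Of the genes at least as long as the shortest member it gave 660 to 1263 lower and 21 to 65 higher, and CEP250 ran from -0.0391 to 0.0631. The cause was not tested.

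With library size only, 683 genes were higher, the other 5 centrosome lists had 22 lower and 1 higher, 4 golgins were lower and CEP250 was at -0.0638. With no filter CEP250 was at -0.0005 and 4 golgins were lower. DESeq2 gave 3 higher in the other 5 lists, and limma on CPM gave 3 there and 781 among all genes. Of the genes at least as long as the shortest member, 1373 were lower and 21 higher with library size only, and 841 and 26 in limma. Calls of named list genes ended in DESeq2 for HAUS7 (adjusted p = 0.103), OFD1 (0.0588) and CEP68 (0.106), in limma for CCP110 (0.0566), TUBG1 (0.0547), OFD1 (0.0735), ASPM (0.0766), NUMA1 (0.0544) and CKAP5 (0.116), with library size only for HAUS7 (0.101), TUBG1 (0.056) and OFD1 (0.127), and for CEP68 with upper quartile scaling (0.0526) and no filter (0.0731).

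With the length and GC trend removed, 0 members were lower and 1 higher, 585 genes lower and 940 higher, and of the genes at least as long as the shortest member 235 lower and 315 higher. The other 5 lists had 3 lower and 3 higher and the golgins 0 lower and 1 higher. Signs changed for PCM1 (0.0598), AKAP9 (0.0286), PCNT (0.0109), CEP290 (0.1639), CDK5RAP2 (0.1093), NIN (0.039) and CKAP5 (0.0655). With coding length, chosen after seeing the data, 0 members were lower and 3 higher, 915 genes lower, 410 lower and 144 higher of the genes at least as long as the shortest member, 2 genes of the other 5 lists lower and 9 higher, and 0 golgins lower and 2 higher. Signs then changed for PCM1 (0.1523), AKAP9 (0.1371), PCNT (0.0326), CEP290 (0.3105), CEP152 (0.0834), CDK5RAP2 (0.2086), NIN (0.0992), CEP295 (0.0266), ASPM (0.024), NUMA1 (0.0073), CKAP5 (0.1635), GCC2 (0.0364) and GOLGA4 (0.0908). With a loop of exactly 7 bases 0 members had a hairpin site.

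With the replicate number as a replicate block, 6 members were lower and 0 higher, 1496 genes lower and 1117 higher, the other 5 lists had 12 lower and 3 higher, and 2 golgins were lower. Calls ended in that block for HAUS7 (adjusted p = 0.0584), OFD1 (0.0521), CEP68 (0.106) and CKAP5 (0.0792). Libraries with the same number were not alike once the group means were removed (r = -0.028, 0.002 and -0.098). Over all pairs of a control and an IRE1-treated library r ran from -0.098 to 0.083. With 3 libraries per group, centred on their mean, this cannot decide whether the numbers pair them. In the replicate block with the length and GC trend removed, 0 members were lower and 1 higher, 512 genes lower and 845 higher, 3 genes of the other 5 lists lower and 3 higher, and 0 golgins lower. Signs changed there for PCM1 (0.0612), AKAP9 (0.0288), PCNT (0.0112), CEP290 (0.1785), CDK5RAP2 (0.1093), NIN (0.0368) and CKAP5 (0.0667).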
